A study of Mus musculus with 18 samples.

Results

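The integrated stress response and the unfolded protein response were followed here through 41 genes, chosen by name as known parts of the pathway and found by their symbols in a deposited count table of 24028 genes. The set held 12 regulators and feedback genes of the ATF4 arm, 10 genes of amino acid supply in the same arm, 12 chaperone and folding genes of the endoplasmic reticulum, 4 genes of endoplasmic reticulum-associated degradation, and 3 genes for stress sensors and the factor XBP1. Of the 41, 40 passed the filter on low counts. The exception was Slc7a3, a cationic amino acid transporter gene, which stayed between 0 and 0.526 CPM (counts scaled to a common library total) in all 18 libraries and was not tested.

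In this pathway, several kinases that sense misfolded protein, amino acid shortage or other stress phosphorylate the translation factor eIF2alpha, which lowers general protein synthesis while the mRNA of the transcription factor ATF4 is translated more. ATF4 drives genes for amino acid synthesis, uptake and redox balance together with feedback and death-linked genes such as Trib3, Ppp1r15a and Ddit3. The sensors IRE1 and ATF6 act beside it in the membrane of the endoplasmic reticulum: IRE1 splices the Xbp1 mRNA, ATF6 is cleaved to a transcription factor, and both raise chaperone and degradation genes.

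All cells were C2C12, a mouse myoblast line (ATCC CRL-1772), grown with puromycin to hold the transgene. Each of 3 clonal lines carried 1 doxycycline-inducible transgene: codon-altered mouse Dux (mDUX in the labels), codon-altered human DUX4 (HDUX4), or firefly luciferase for control. The 2 DUX proteins are transcription factors of the early embryo with paired homeodomains. Induced cultures had doxycycline at 2 µg/ml for 36 h, uninduced cultures of the same clone were harvested at the same time without it, and each of the 6 groups held 3 separate cultures. With 1 clone per transgene, the transgene, the clone and its integration site cannot be told apart.

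Polyadenylated RNA gave 11010586 to 17179642 counts per library. The 7 myoblast markers summed to 1310 to 1540 CPM in the Dux line, 330 to 784 CPM in the DUX4 line and 2230 to 2930 CPM in the luciferase line. The sum was lower with doxycycline in every line. Against it, Des rose in the Dux line from 690, 732 and 732 to 988, 960 and 894 CPM. The means of Myod1, Myf5, Pax7, Cdh15, Ncam1 and Itga7 were lower there. Myf5 rose in the DUX4 line, from 6.94, 7.12 and 6.86 to 9.11, 7.26 and 10.1 CPM, while Myod1, Cdh15, Des, Ncam1 and Itga7 fell. The 6 markers of differentiated muscle were also lower with doxycycline in every line: they summed to 724 to 781 CPM without and 377 to 424 CPM with it in the luciferase line, 10.4 to 11.9 and 2.44 to 3.37 CPM in the DUX4 line, and 6.96 to 8.86 and 3.74 to 4.27 CPM in the Dux line. The part of these falls in the responses below, those of the luciferase control included, was not tested. Of the leukocyte markers, Cd3e had no count in any library and Ptprc stayed at or below 0.225 CPM. Cd68 rose with DUX4 from 1.69, 1.8 and 1.73 to 20.5, 22.6 and 19.4 CPM, and Lyz2 with Dux from 0.255, 0.638 and 0.765 to 2.56, 2.4 and 2.93 CPM. The highest leukocyte sum was 22.8 CPM, in the induced DUX4 line. Endothelial sums were 22.5 to 27.2 CPM in the luciferase line, mainly from Cdh5, and at most 1.47 CPM in the other lines. Epithelial sums stayed at or below 1.32 CPM. Adipocyte sums reached 32 CPM with DUX4, where Pparg went from 13.1, 10.8 and 10.6 to 31.9, 30 and 29.9 CPM. Induced Dux library 1 stood apart from its replicates: counts differed by 34.2 and 36.7 times the sampling variance against 2.15 between libraries 2 and 3, so calls in the Dux line that depend on it are given with and without it. Uninduced Dux library 1 also stood apart, by 5.16 and 5.25 times against 1.26 between its replicates, and it enters the Dux response of every gene. In bulk RNA, fewer cells with a transcript and less transcript per cell cannot be told apart.

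Promoters are shown first for 6 members that carry the sequence elements usually named for the 2 arms. RefSeq start sites on GRCm38.p6 were found for 35 members, and the 250 bases upstream were searched on both strands. Atf6, Cth, Manf, Slc7a5, Hyou1 and Slc7a3 had no entry. Sequences run 5′ to 3′ on the gene's strand, and capitals mark the match. The C/EBP-ATF response element, the site bound by ATF4 dimers, was searched as TGATGNAA. It was present in 4 of 12 regulators (Atf3, Chac1, Nupr1 and Vldlr), 2 of 7 amino acid genes (Asns and Slc7a11), Herpud1 and none of 10 chaperone genes, against 2.94% of 21680 promoters. Here and below, members were counted once per gene, with a match at any of their start sites. The share over all promoters counts each promoter of 17965 genes. Atf3 lies at chr1:191183334-191183583 (minus strand) with the match at −110 to −103 from the start, Chac1 at chr2:119350992-119351241 (plus strand) with the match at −193 to −186, and Asns at chr6:7693210-7693459 (minus strand) with the match at −23 to −16.
Atf3: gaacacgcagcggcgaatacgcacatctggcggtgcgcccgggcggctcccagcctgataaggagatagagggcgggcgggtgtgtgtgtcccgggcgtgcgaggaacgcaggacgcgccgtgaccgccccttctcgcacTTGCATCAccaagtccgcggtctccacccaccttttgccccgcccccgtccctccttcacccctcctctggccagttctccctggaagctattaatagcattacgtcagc
Chac1: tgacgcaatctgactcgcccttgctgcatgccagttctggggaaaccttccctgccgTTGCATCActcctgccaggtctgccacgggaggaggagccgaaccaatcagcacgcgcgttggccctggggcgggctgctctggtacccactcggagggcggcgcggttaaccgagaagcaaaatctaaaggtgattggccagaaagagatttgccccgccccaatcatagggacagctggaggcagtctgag
Asns: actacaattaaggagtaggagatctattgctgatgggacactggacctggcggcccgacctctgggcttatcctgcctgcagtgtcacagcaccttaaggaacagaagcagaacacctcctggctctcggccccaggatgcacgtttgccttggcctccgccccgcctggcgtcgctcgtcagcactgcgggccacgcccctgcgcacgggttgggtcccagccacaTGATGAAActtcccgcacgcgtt

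The endoplasmic reticulum stress element of type I, bound by ATF6 and XBP1 with NF-Y, was searched as well. It was present in 6 of 10 chaperone genes (Calr, Creld2, Dnajc3, Hsp90b1, Hspa5 and Pdia6), in the degradation gene Syvn1 and in no member of the ATF4 arm, against 0.134% of all promoters. The type II element was found in 0.0323% of all promoters and, among members, in that of Herpud1, which also held a C/EBP-ATF element. The Hspa5 stretch is chr2:34771840-34772089 (plus strand), with the match at −65 to −47. The Hsp90b1 stretch is chr10:86705445-86705694 (minus strand), with matches at −212 to −194 and −107 to −89. The Herpud1 stretch is chr8:94386179-94386428 (plus strand), with the C/EBP-ATF element at −112 to −105 and the type II element at −52 to −42.
Hspa5: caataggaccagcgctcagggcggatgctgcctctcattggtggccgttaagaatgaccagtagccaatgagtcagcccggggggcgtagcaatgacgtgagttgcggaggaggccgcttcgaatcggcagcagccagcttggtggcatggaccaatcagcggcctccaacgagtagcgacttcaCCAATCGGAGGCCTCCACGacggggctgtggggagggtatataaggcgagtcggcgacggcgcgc
Hsp90b1: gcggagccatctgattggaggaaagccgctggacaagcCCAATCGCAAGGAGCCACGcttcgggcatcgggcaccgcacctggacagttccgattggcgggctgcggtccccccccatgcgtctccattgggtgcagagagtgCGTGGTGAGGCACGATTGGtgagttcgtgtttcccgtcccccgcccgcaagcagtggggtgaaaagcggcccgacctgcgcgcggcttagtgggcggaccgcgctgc
Herpud1: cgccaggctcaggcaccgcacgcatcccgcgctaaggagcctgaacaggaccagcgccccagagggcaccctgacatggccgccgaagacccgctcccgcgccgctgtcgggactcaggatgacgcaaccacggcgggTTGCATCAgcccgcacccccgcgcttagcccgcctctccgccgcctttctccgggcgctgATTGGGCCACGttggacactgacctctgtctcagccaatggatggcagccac

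The unfolded protein response element TGACGTGG and a DUX4 homeodomain core were in 0.6% and 0.83% of all promoters and in no member's upstream stretch. A match is a description of the letters and not evidence of binding, and the absence of one says only that these letters are not in this window. The members were chosen as known parts of the pathway, so their counts against all promoters are no independent test of the elements. The part of the elements in the responses was not tested.

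With induction of mouse Dux most genes of the ATF4 arm and most chaperone genes rose, whereas with induction of human DUX4 part of the ATF4 arm rose while most chaperone genes fell. In the luciferase line given doxycycline, 11 of 12 regulators and 8 of 9 amino acid genes also rose, and 7 of 12 chaperone genes fell. With Dux, 31 of 40 members rose and 2 fell at an adjusted p under 0.05 (edgeR quasi-likelihood test, Benjamini-Hochberg over 13602 genes), beside 34.1% of all genes higher and 34.8% lower. With DUX4, 16 members rose and 16 fell, beside 34.4% and 33.1% of all genes. In the luciferase line, which measures doxycycline with a control protein, 24 members rose and 9 fell, beside 14.7% and 16.4% of all genes. The median log2 fold change over the tested members was 0.66 with Dux, −0.03 with DUX4 and 0.38 in the luciferase line, and over all genes it was −0.0053, 0 and 0. Many members thus also changed in the luciferase line. Set against that line, the DUX4 response was higher for 3 regulators and lower for 5, and higher for 3 amino acid genes and lower for 3. It was lower for 8 of 12 chaperone genes and higher for none. Of all genes, 28.3% were higher and 26.7% lower in that comparison.

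**Figure D1:**
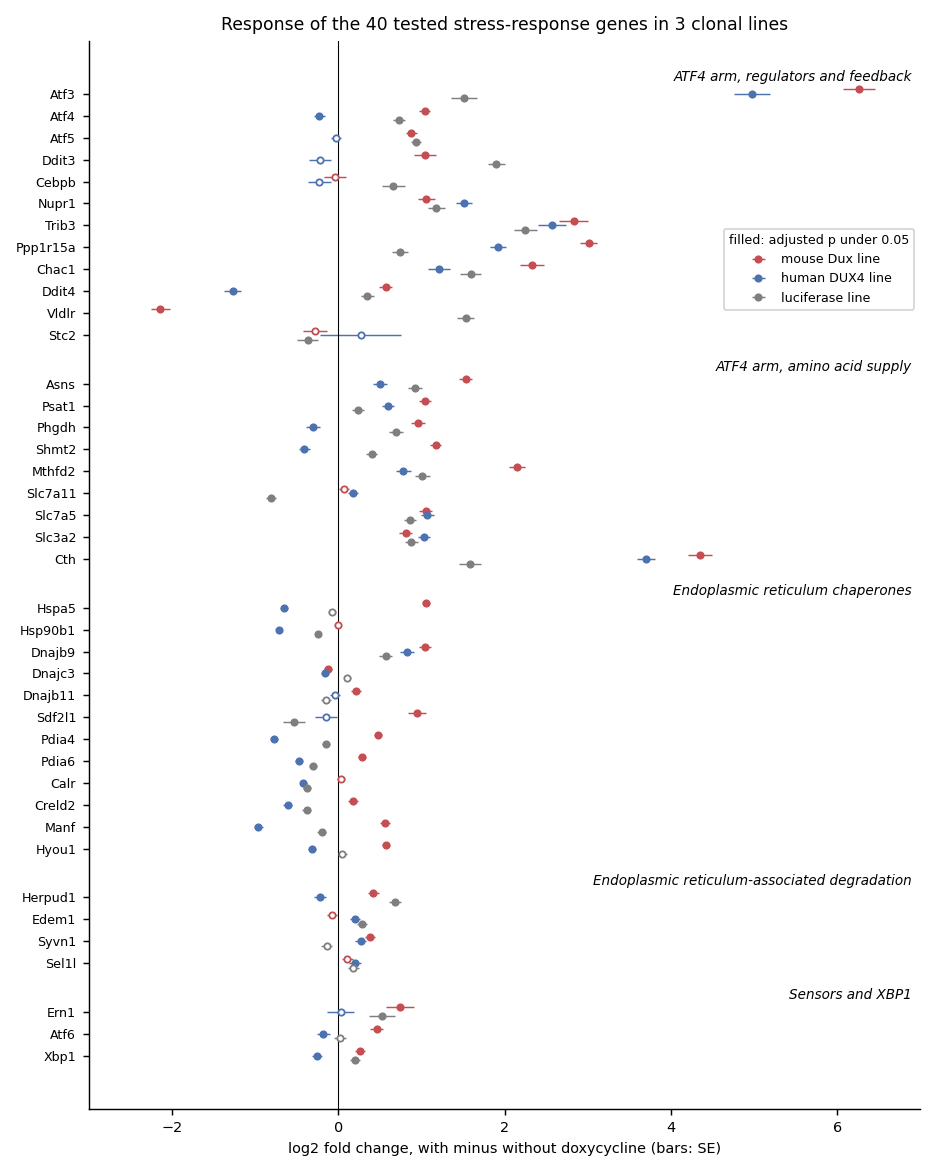
Log2 fold change with against without doxycycline (x axis, 3 libraries against 3) for the 40 tested members, grouped by role, in the mouse Dux, human DUX4 and luciferase lines. Bars are an approximate SE, the absolute log2 fold change divided by the square root of the edgeR F statistic. Filled points passed an adjusted p of 0.05, and Vldlr has no DUX4 point because its counts there were 2 against 1. The chaperone points of the Dux line lie between −0.12 and 1.05 and those of the DUX4 line between −0.96 and 0.83, on TMM scaling; with scaling by library size alone, Dnajb11 at −0.04, Calr at −0.22, Creld2 at −0.07, Slc7a11 at −0.18 and Sel1l at −0.13 turn negative in the Dux line.

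Among regulators, Atf3 had the widest change of all members in both the Dux and DUX4 lines. Atf3 (chromosome 1, 191170296 to 191218039, minus strand) encodes a stress-induced bZIP repressor. It went from 0.509, 0.986 and 0.446 CPM in the 3 uninduced Dux libraries to 59.1, 46.9 and 49.7 CPM in the induced ones. It went from 0.751, 0.577 and 0.603 to 21.2, 19.8 and 20.6 CPM with DUX4, and from 4.38, 4.02 and 3.38 to 13.4, 9.04 and 11.2 CPM in the luciferase line. Induced and uninduced libraries did not overlap in any line, and the uninduced Dux and DUX4 clones started below the luciferase clone. The log2 fold changes were 6.26 (SE 0.189, adjusted p = 5e-16) with Dux, 4.97 (SE 0.216, adjusted p = 9.68e-14) with DUX4 and 1.51 (SE 0.16, adjusted p = 4.55e-07) in the luciferase line, all from edgeR. The Dux response exceeded the DUX4 response by 1.29 (SE 0.473, adjusted p = 0.0225). That difference rests on uninduced counts near the detection limit: without uninduced Dux library 1, uninduced Dux library 3 or uninduced DUX4 library 1 it was 1.17, 1.05 and 1.15 with adjusted p = 0.0514, 0.0715 and 0.0882.

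Atf4 itself (chromosome 15, 80255184 to 80257541, plus strand), the central factor of the arm, rose in the Dux line and fell slightly in the DUX4 line. Its values were 222, 224 and 225 CPM without and 503, 436 and 435 CPM with Dux. With DUX4 they went from 377, 391 and 380 to 334, 324 and 323 CPM, and in the luciferase line from 324, 334 and 345 to 608, 484 and 569 CPM. The groups were separate in each line, downward only for DUX4. The log2 fold changes by edgeR were 1.04 (SE 0.0684, adjusted p = 8.03e-11), −0.23 (SE 0.0675, adjusted p = 0.00597) and 0.73 (SE 0.0675, adjusted p = 7.25e-08), and the Dux response differed from that of DUX4 by 1.26 (SE 0.096, adjusted p = 7.58e-10). Counts per gene show the mRNA only, and ATF4 is set largely by translation.

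Ddit3 (chromosome 10, 127290774 to 127296288, plus strand), which encodes the pro-apoptotic factor CHOP, rose with Dux and in luciferase cells. It went from 12.6, 11.9 and 10.8 to 28, 20.8 and 23.2 CPM with Dux, from 18.4, 17.7 and 17.9 to 16.8, 15 and 14.6 CPM with DUX4 and from 24.6, 25.4 and 25.3 to 110, 78.9 and 91.2 CPM in the luciferase line. The highest levels were therefore those of luciferase cells given doxycycline, and the DUX4 libraries with and without induction lay apart but close. Its edgeR log2 fold changes were 1.04 (SE 0.129, adjusted p = 7.04e-07), −0.22 (SE 0.127, adjusted p = 0.137) and 1.90 (SE 0.103, adjusted p = 3.09e-11). The Dux rise was smaller than the luciferase rise by 0.86 on the log2 scale (Dux minus luciferase −0.86 (SE 0.166, adjusted p = 0.00019)). Exons of Ddit3 share 68 bases with Mars on the opposite strand, so a part of these reads is of uncertain origin. Atf5, another ATF4-related bZIP gene, rose with Dux (0.88) and in the luciferase line (0.93) and was at −0.03 with DUX4 (adjusted p = 0.733). Its exons share 82 bases with Il4i1 and Nup62.

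The feedback genes of the arm rose in all 3 lines. Trib3 (chromosome 2, 152337422 to 152344032, minus strand), a pseudokinase that restrains ATF4, went from 7.56, 6.15 and 5.8 to 44.9, 48 and 44.3 CPM with Dux and from 7.19, 8.46 and 7.32 to 47.9, 43.6 and 45.3 CPM with DUX4. In the luciferase line it went from 23.1, 21 and 23.6 to 137, 79.5 and 106 CPM. No induced library overlapped an uninduced one, and induced luciferase library 2 was the lowest of its group here, as it was for Atf3, Atf4, Ddit3 and Chac1. The edgeR log2 fold changes were 2.83 (SE 0.173, adjusted p = 2.4e-11), 2.57 (SE 0.166, adjusted p = 4.77e-11) and 2.25 (SE 0.135, adjusted p = 1.35e-10); Dux and DUX4 did not differ detectably (0.26 (SE 0.256, adjusted p = 0.39)).

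Ppp1r15a (chromosome 7, 45522916 to 45526268, minus strand) encodes GADD34, the subunit that directs dephosphorylation of eIF2alpha. It rose from 16.5, 20.1 and 18.8 to 152, 150 and 148 CPM with Dux, from 18.6, 20.7 and 19.9 to 74.9, 73.7 and 75.9 CPM with DUX4 and from 35.5, 35.1 and 32.9 to 68.2, 46.9 and 57.3 CPM with luciferase. All groups were separate, and the induced Dux libraries lay highest. The edgeR log2 fold changes of 3.01 (SE 0.0988, adjusted p = 1.81e-15), 1.92 (SE 0.0992, adjusted p = 1.43e-12) and 0.74 (SE 0.0933, adjusted p = 4.59e-06) also differed from each other: Dux exceeded luciferase by 2.28 (SE 0.136, adjusted p = 3.75e-11) and DUX4 exceeded luciferase by 1.19 (SE 0.136, adjusted p = 4.41e-07).

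Chac1 (chromosome 2, 119351229 to 119354381, plus strand), a glutathione-degrading enzyme, went from 12.6, 14.8 and 12.9 to 77, 65.1 and 61.3 CPM with Dux and from 21.1, 21.6 and 21.3 to 51.1, 51.2 and 46 CPM with DUX4. Luciferase libraries went from 25.4, 25 and 24.9 to 93.6, 56.5 and 75.8 CPM. Each induced group lay above its uninduced group. By edgeR the rises were 2.33 (SE 0.143, adjusted p = 2.54e-11), 1.21 (SE 0.136, adjusted p = 1.62e-07) and 1.59 (SE 0.129, adjusted p = 1.17e-08), and the DUX4 rise was not distinguished from that of luciferase (−0.37 (SE 0.188, adjusted p = 0.103)). Nupr1 (chromosome 7, 126623249 to 126630861, minus strand), a small stress-induced chromatin-associated protein gene, rose from 37.8, 35.7 and 29.9 to 80, 68.9 and 66.3 CPM with Dux and from 38.6, 42.1 and 39.9 to 118, 113 and 112 CPM with DUX4. In luciferase cells it rose from 47, 45.3 and 45.2 to 116, 85 and 109 CPM. All groups were separate, and the Dux response was below that of DUX4 by edgeR (−0.44 (SE 0.142, adjusted p = 0.0103)).

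**Figure D2:**
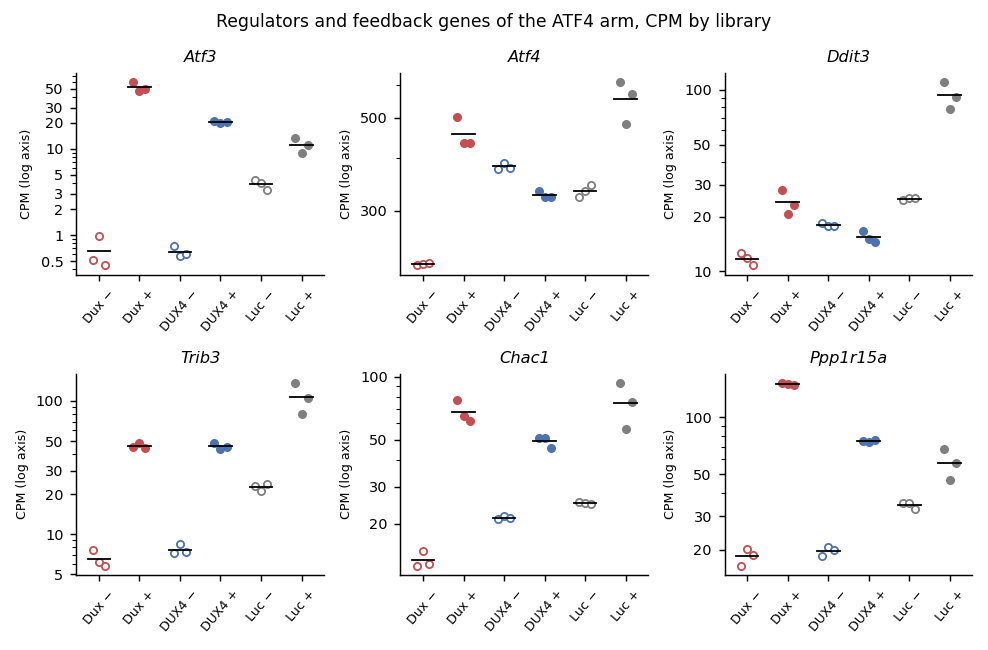
CPM on log axes in every library for 6 regulators and feedback genes, without (open, −) and with (filled, +) doxycycline, 3 libraries a group, black lines are means. Atf3 and Ppp1r15a reach their highest values in the induced Dux libraries (46.9 to 59.1 and 148 to 152 CPM), while Ddit3 and Trib3 reach theirs in the induced luciferase libraries (78.9 to 110 and 79.5 to 137 CPM).

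The other regulators diverged. Ddit4 (chromosome 10, 59949669 to 59951834, minus strand), which encodes the mTORC1 inhibitor REDD1, went from 54.4, 54.1 and 55.1 to 94.8, 73.9 and 73.1 CPM with Dux but fell from 32.2, 31.2 and 31.3 to 12.9, 14.5 and 11.8 CPM with DUX4. In luciferase cells it went from 97, 94.5 and 97.7 to 129, 114 and 126 CPM. The direction was thus opposite in the Dux and DUX4 lines, with no overlap in any line. By edgeR the changes were 0.57 (SE 0.0804, adjusted p = 4.12e-06), −1.27 (SE 0.0996, adjusted p = 8.71e-10) and 0.35 (SE 0.0759, adjusted p = 0.00125), and the difference between Dux and DUX4, 1.84 (SE 0.128, adjusted p = 2.16e-10), was the widest called among members. Vldlr (chromosome 19, 27216484 to 27254231, plus strand), a lipoprotein receptor gene, fell from 67.1, 59.5 and 64.4 to 11.7, 15.6 and 16.2 CPM with Dux and rose from 31.4, 30 and 31.1 to 105, 75.3 and 87.1 CPM in luciferase cells. The DUX4 clone had almost none: 1 count over its 3 uninduced libraries and 2 over its induced ones, so no fold is given there. Against 1486 counts in the uninduced luciferase libraries, the ratio of luciferase to DUX4 clone was 1380, with an exact 95% interval of 248 to 54600 for counting error only. By edgeR the Dux and luciferase changes of Vldlr were −2.14 (SE 0.118, adjusted p = 5.5e-12) and 1.53 (SE 0.104, adjusted p = 8.92e-10). Cebpb, a dimer partner of ATF4, rose in luciferase cells (0.66 (SE 0.138, adjusted p = 0.00107) by edgeR), with −0.04 and −0.23 in the Dux and DUX4 lines (adjusted p = 0.825 and 0.151), and its Dux and DUX4 responses were below that of luciferase (−0.70 (SE 0.195, adjusted p = 0.00475) and −0.89 (SE 0.196, adjusted p = 0.000733)). Cebpb shares 312 exonic bases with Tmem189 on the opposite strand. Stc2, a secreted stanniocalcin gene, passed in luciferase cells at −0.37 (SE 0.124, adjusted p = 0.0302) by edgeR, a call that ended with any of 4 single libraries left out (adjusted p from 0.0596 to 0.138) and with DESeq2 (adjusted p = 0.0626). With Dux it was at −0.28, uncalled, and at −0.53 (adjusted p = 0.00332) with library size alone. Over the 12 regulators, 9 rose and 1 fell with Dux, 5 rose and 2 fell with DUX4, and 11 rose and 1 fell with luciferase. Of all genes, 34.1% rose and 34.8% fell with Dux, 34.4% and 33.1% with DUX4, and 14.7% and 16.4% with luciferase. The median log2 changes of the regulators were 1.04 (0.79 with library size alone), 0.53 and 1.05. The DUX4 median is poorly fixed: it was 0.27 without Vldlr, 0.34 without uninduced DUX4 library 1, and 0.20, 0.28 and 0.26 in the 3 induced libraries taken singly.

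Most amino acid supply genes rose in every line. Of the 9 tested, 8 rose with Dux, with Slc7a11 not called, and the median log2 change was 1.05. With DUX4, 7 rose and Phgdh and Shmt2 fell (median 0.60), and with luciferase 8 rose and Slc7a11 fell (median 0.86). Of all genes, 34.1% rose and 34.8% fell with Dux, 34.4% and 33.1% with DUX4, and 14.7% and 16.4% with luciferase. The order of the Dux and luciferase medians depends on the scaling, since library size alone gave 0.80 and 0.88.

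Cth (chromosome 3, 157894248 to 157925077, minus strand), the enzyme that releases cysteine in transsulfuration, changed most. It went from 1.53, 1.91 and 1.98 to 40.6, 34.8 and 36.8 CPM with Dux, from 4.75, 5.77 and 4 to 65.8, 62.8 and 62.5 CPM with DUX4 and from 5.54, 3.9 and 4.07 to 15.4, 12.3 and 13.1 CPM with luciferase. Every induced library exceeded every uninduced one, and the DUX4 cells reached the highest level. The edgeR log2 changes were 4.35 (SE 0.142, adjusted p = 1.71e-15), 3.70 (SE 0.113, adjusted p = 5.15e-16) and 1.58 (SE 0.132, adjusted p = 1.67e-08). The rises with Dux and with DUX4 exceeded that of luciferase by 2.76 (SE 0.219, adjusted p = 2.26e-09) and 2.12 (SE 0.189, adjusted p = 1.3e-08). The difference between Dux and DUX4 (0.64 (SE 0.22, adjusted p = 0.0153)) was lost without uninduced Dux library 1 (0.56, adjusted p = 0.052), without uninduced DUX4 library 2 (0.49, adjusted p = 0.0676) and at 0.44 (adjusted p = 0.0861) under scaling by library size.

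Asns (chromosome 6, 7675169 to 7693254, minus strand), asparagine synthetase, went from 73.3, 77.4 and 75.9 to 229, 212 and 212 CPM with Dux, from 85.1, 82.4 and 86 to 118, 121 and 119 CPM with DUX4 and from 66.3, 66.3 and 72.5 to 149, 107 and 133 CPM with luciferase. The groups were separate in each line, and the uninduced levels of the 3 clones lay close together. By edgeR the rises were 1.53 (SE 0.0817, adjusted p = 3.19e-12), 0.50 (SE 0.0813, adjusted p = 2.13e-05) and 0.92 (SE 0.0817, adjusted p = 3.91e-08), so that the DUX4 rise was below that of luciferase (−0.43 (SE 0.115, adjusted p = 0.00391)). Mthfd2 (chromosome 6, 83305691 to 83325908, minus strand), a mitochondrial folate enzyme, went from 44.1, 42.5 and 39.3 to 193, 182 and 181 CPM with Dux and from 83, 77.8 and 83 to 138, 144 and 136 CPM with DUX4. Luciferase cells went from 60.8, 59.7 and 59.3 to 143, 97.1 and 123 CPM. Its groups were separate, and its rises were 2.15 (SE 0.0939, adjusted p = 1.45e-13), 0.78 (SE 0.0891, adjusted p = 2.26e-07) and 1.01 (SE 0.0905, adjusted p = 4.35e-08) by edgeR.

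The enzymes of serine and glycine synthesis separated Dux from DUX4. Shmt2 (chromosome 10, 127517123 to 127522444, minus strand), mitochondrial serine hydroxymethyltransferase, rose from 62.8, 62.6 and 63.5 to 153, 138 and 135 CPM with Dux and fell from 139, 130 and 133 to 109, 101 and 94 CPM with DUX4. In luciferase cells it rose from 69.5, 68.1 and 71.7 to 103, 83.2 and 90.7 CPM. No groups overlapped, and the edgeR changes were 1.17 (SE 0.0707, adjusted p = 1.94e-11), −0.41 (SE 0.0687, adjusted p = 3.11e-05) and 0.40 (SE 0.0702, adjusted p = 0.00017). Phgdh, the first enzyme of serine synthesis, did likewise at 0.96, −0.31 and 0.69, and Dux exceeded DUX4 by 1.27 (SE 0.119, adjusted p = 1.62e-08) for Phgdh and 1.58 (SE 0.0985, adjusted p = 4.14e-11) for Shmt2. Psat1 (chromosome 19, 15904678 to 15947337, minus strand), the next enzyme of the pathway, rose in all lines: from 201, 206 and 193 to 444, 392 and 395 CPM with Dux, from 263, 265 and 251 to 391, 400 and 391 CPM with DUX4 and from 92.9, 96 and 107 to 129, 102 and 117 CPM with luciferase. One uninduced luciferase library lay above an induced one for Psat1, whereas the Dux and DUX4 groups were separate. Its edgeR changes were 1.04 (SE 0.0706, adjusted p = 1.2e-10), 0.60 (SE 0.0699, adjusted p = 2.63e-07) and 0.24 (SE 0.0724, adjusted p = 0.0169), the last lost without induced luciferase library 1 (0.15, adjusted p = 0.138) and without either uninduced library 1 or 2 (0.20 and 0.22, adjusted p = 0.0908 and 0.0649).

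The transporters gave 2 patterns. Slc7a5 (chromosome 8, 121881150 to 121907694, minus strand) and Slc3a2 (chromosome 19, 8706882 to 8723369, minus strand) encode the light and heavy chains of the large neutral amino acid exchanger. Slc7a5 went from 98.2, 102 and 100 to 212, 212 and 198 CPM with Dux, from 171, 178 and 184 to 377, 380 and 362 CPM with DUX4 and from 137, 127 and 142 to 283, 210 and 244 CPM with luciferase. Slc3a2 went from 115, 125 and 123 to 231, 208 and 199, from 134, 134 and 131 to 279, 274 and 260 and from 128, 125 and 128 to 265, 203 and 236 CPM in the same order. Both chains were higher in every induced library. Their edgeR log2 changes were 1.05 (SE 0.0771, adjusted p = 4.21e-10), 1.07 (SE 0.0753, adjusted p = 1.73e-10) and 0.86 (SE 0.0757, adjusted p = 3.63e-08) for Slc7a5, and 0.81 (SE 0.0749, adjusted p = 1.08e-08), 1.03 (SE 0.0746, adjusted p = 2.57e-10) and 0.88 (SE 0.0744, adjusted p = 1.87e-08) for Slc3a2. None of the 3 differences between lines passed the test for Slc7a5 or for Slc3a2 (Dux minus luciferase 0.19, SE 0.107, and −0.07, SE 0.105), although Dux minus DUX4 passed for Slc3a2 without induced Dux library 1 (−0.27, adjusted p = 0.00333) and under library-size scaling (−0.42, adjusted p = 0.00163). Slc7a11, the cystine importer that pairs with the same heavy chain, instead fell in luciferase cells by 0.81 on the log2 scale (−0.81 (SE 0.0622, adjusted p = 5.02e-09) by edgeR). It was at 0.07 with Dux (adjusted p = 0.36) and 0.18 with DUX4 (adjusted p = 0.0128). With library size alone Slc7a11 was a called fall with Dux (−0.18, adjusted p = 0.0126). Its upstream stretch held 2 C/EBP-ATF elements.

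**Figure D3:**
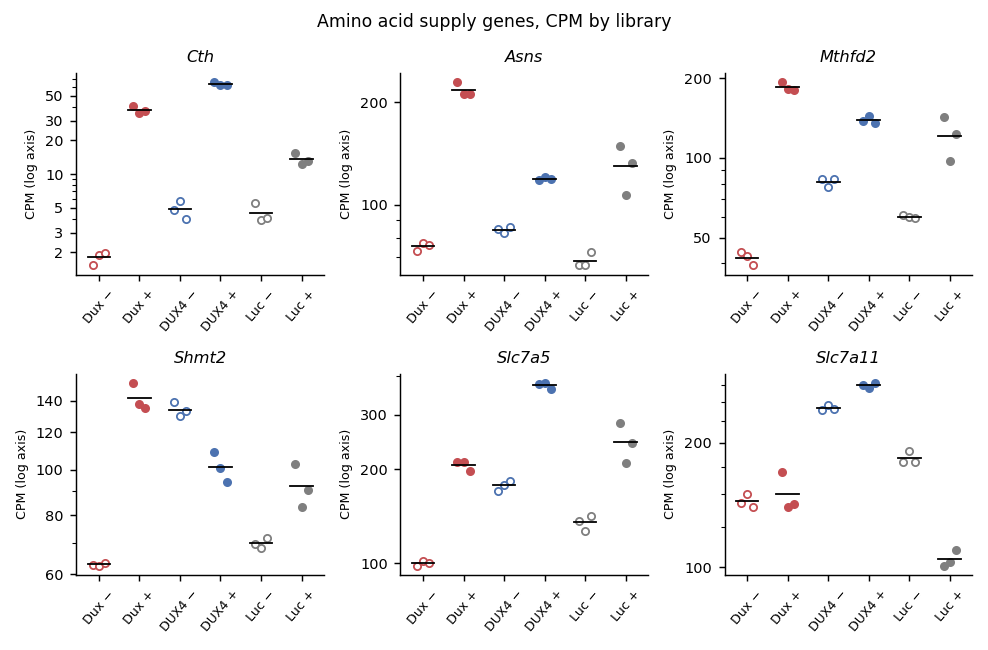
CPM on log axes in every library for 6 amino acid supply genes, without (open, −) and with (filled, +) doxycycline, 3 libraries a group, black lines are means. Cth and Slc7a5 rise in all 3 lines, Shmt2 rises in the Dux and luciferase lines and falls in the DUX4 line, and Slc7a11 falls from 180 to 191 CPM to between 101 and 110 CPM in the luciferase line.

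Of the 12 chaperone genes, 6 were called in opposite directions with Dux and with DUX4. These (Creld2, Hspa5, Hyou1, Manf, Pdia4 and Pdia6) rose with Dux and fell with DUX4, while Dnajb9 rose with both, Dnajc3 fell with both, and Calr, Hsp90b1, Dnajb11 and Sdf2l1 were called in 1 of the 2 lines. The share of all genes called in opposite directions was not counted, so these pairs of calls have no background beside them. With Dux, 9 of 12 rose and 1 fell (median log2 change 0.38), whereas with DUX4 1 rose and 9 fell (median −0.44). In luciferase cells 1 rose and 7 fell (median −0.18). The shares of all genes higher and lower were 34.1% and 34.8% with Dux and 34.4% and 33.1% with DUX4. With luciferase they were 14.7% and 16.4%. The Dux count depends on the scaling: with library size alone, under which the median of all genes in that comparison was −0.25, 6 chaperone genes rose and 3 fell with a median of 0.13. Under that scaling 3199 of all 13602 genes rose and 6922 fell.

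Hspa5 (chromosome 2, 34771970 to 34777547, plus strand) encodes BiP, the main chaperone of the endoplasmic reticulum and the regulator of all 3 sensors. It rose from 716, 681 and 676 to 1520, 1360 and 1400 CPM with Dux. With DUX4 it fell from 1100, 1090 and 1090 to 690, 706 and 688 CPM, and in luciferase cells it went from 843, 829 and 852 to 829, 758 and 804 CPM. The Dux and DUX4 groups were each separate in opposite directions, while the luciferase groups overlapped, the highest induced library and the lowest uninduced one both being at 829 CPM. The log2 changes by edgeR were 1.05 (SE 0.047, adjusted p = 2.15e-13), −0.65 (SE 0.0467, adjusted p = 2.17e-10) and −0.08 (SE 0.0465, adjusted p = 0.228). The Dux response exceeded that of DUX4 by 1.70 (SE 0.0662, adjusted p = 4.65e-14) and that of luciferase by 1.12 (SE 0.0659, adjusted p = 2.96e-11).

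Dnajb9 (chromosome 12, 44205559 to 44210326, minus strand), the ERdj4 cochaperone that represses IRE1, was the chaperone gene that rose in all 3 lines. It went from 35.8, 37.7 and 34.3 to 80.8, 69.7 and 71.6 CPM with Dux, from 20.1, 22.1 and 21.2 to 38.7, 41.1 and 33.2 CPM with DUX4 and from 32.5, 31.4 and 29.7 to 47.7, 43.2 and 48.2 CPM with luciferase. The groups were separate in each line, and the edgeR changes were 1.04 (SE 0.0747, adjusted p = 2.76e-10), 0.83 (SE 0.0825, adjusted p = 2.73e-08) and 0.57 (SE 0.0766, adjusted p = 8.86e-06).

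The remaining chaperone genes are given by their log2 changes in the Dux, DUX4 and luciferase lines, from the same edgeR fit. Manf, a secreted survival factor kept in the endoplasmic reticulum, was at 0.56, −0.96 and −0.20, and its Dux response exceeded that of DUX4 by 1.52 (SE 0.0816, adjusted p = 4.96e-12). Pdia4 and Pdia6, disulfide isomerases, were at 0.48, −0.77 and −0.15 and at 0.28, −0.47 and −0.30. Hyou1, a nucleotide exchange factor for BiP, rose with Dux (0.57), fell with DUX4 (−0.32) and was at 0.05 with luciferase (adjusted p = 0.485). Sdf2l1, a cofactor of Dnajb11, rose with Dux (0.95 (SE 0.11, adjusted p = 3e-07)) and fell in luciferase cells (−0.53 (SE 0.13, adjusted p = 0.00367)), with −0.15 for DUX4 (adjusted p = 0.352). The glycoprotein chaperone Calr and the HSP90 paralogue Hsp90b1 fell with DUX4 (−0.42 and −0.71) and with luciferase (−0.38 and −0.24), and were at 0.03 and −0.0091 with Dux (adjusted p = 0.588 and 0.845). With library size alone both were called falls with Dux, at −0.22 and −0.25 (adjusted p = 0.000159 and 4.06e-06).

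Smaller calls in the Dux line rested on induced library 1 or on the scaling. Creld2 rose by 0.18 (adjusted p = 0.0155), but without induced Dux library 1 it was at 0.07 (adjusted p = 0.281) and with library size alone at −0.07, and the call was also lost with only the compared groups (adjusted p = 0.0861). Dnajb11 rose by 0.21 (adjusted p = 0.00455), with −0.04 under library size alone and adjusted p = 0.0539 when only the compared groups were fitted. Dnajc3, the P58IPK cochaperone, fell with Dux by 0.12 on the log2 scale (adjusted p = 0.0327), a call lost without induced library 1 (adjusted p = 0.0596), without uninduced library 2 (adjusted p = 0.122), with RLE scaling (adjusted p = 0.0536) and with only the compared groups (adjusted p = 0.262). Pdia6 was no longer called in the Dux line with library size alone (0.03, adjusted p = 0.534). In luciferase cells Creld2 fell (−0.38), and Dnajb11 and Dnajc3 were at −0.15 and 0.11 (adjusted p = 0.0563 and 0.0937). Both passed there with only the compared groups (adjusted p = 0.000488 and 0.0114 by edgeR). Dnajb11 also passed there with RLE scaling (adjusted p = 0.0334) and DESeq2 (adjusted p = 0.0268). The falls of Pdia4 and Manf there were lost without uninduced library 3 (adjusted p = 0.0708 and 0.0691), and that of Pdia4 also without induced or uninduced library 2 (adjusted p = 0.0562 and 0.0509). Exons shared with genes on the opposite strand covered 415 bases of Hsp90b1, 146 and 166 of Manf and 50 of Pdia6.

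**Figure D4:**
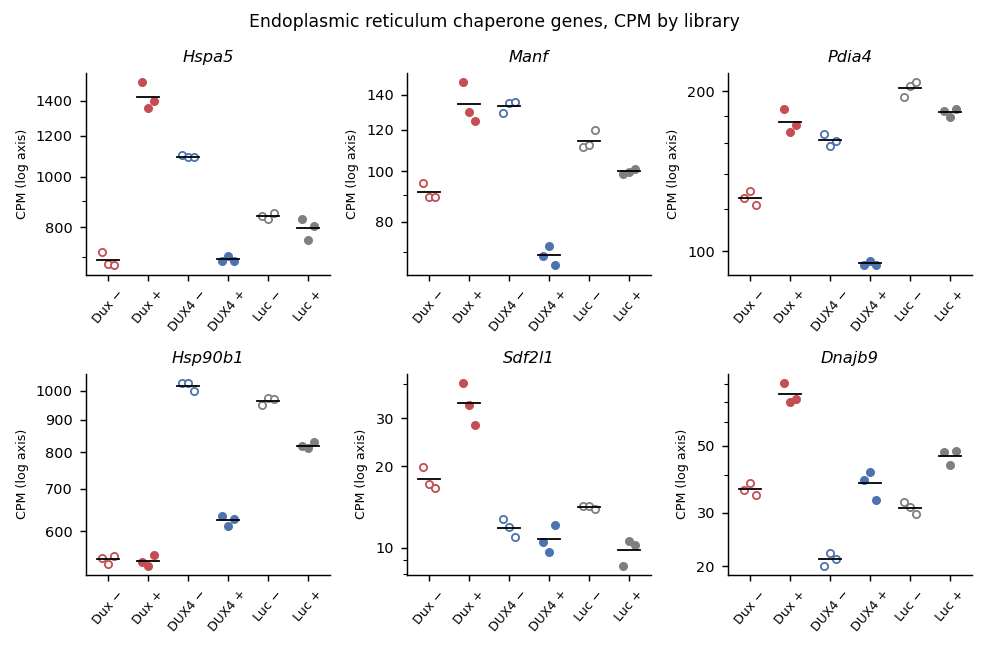
CPM on log axes in every library for 6 chaperone genes, without (open, −) and with (filled, +) doxycycline, 3 libraries a group, black lines are means. Hspa5 rises to between 1360 and 1520 CPM with Dux and falls to between 688 and 706 CPM with DUX4, and Dnajb9 rises in all 3 lines.

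The 4 degradation genes changed little. With Dux 2 rose, with DUX4 3 rose and 1 fell, and with luciferase 2 rose, with medians of 0.24, 0.20 and 0.23. Of all genes, 34.1% rose with Dux, 34.4% rose and 33.1% fell with DUX4, and 14.7% rose with luciferase. Herpud1, which organises the degradation complex and holds elements of both arms in its promoter, rose with Dux (0.42 (SE 0.0686, adjusted p = 2.19e-05) by edgeR) and luciferase (0.68 (SE 0.0723, adjusted p = 4.5e-07)) and fell with DUX4 (−0.22 (SE 0.0734, adjusted p = 0.0117)). Syvn1, the ubiquitin ligase HRD1, rose by 0.38 with Dux (0.13, adjusted p = 0.0688, with library size alone) and by 0.27 with DUX4, and was at −0.14 with luciferase (adjusted p = 0.123). Edem1, a mannosidase-like lectin, rose with DUX4 (0.20) and luciferase (0.28) and was at −0.08 with Dux (adjusted p = 0.25). It became a called fall with Dux under library size alone (−0.33, adjusted p = 0.000101) and without induced library 3 (−0.15, adjusted p = 0.0317). Sel1l, the HRD1 adaptor, passed with DUX4 (0.20) and was at 0.11 with Dux (adjusted p = 0.167), or 0.21 (adjusted p = 1.26e-05) without induced library 1, and at 0.18 with luciferase (adjusted p = 0.0574).

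Ern1 (chromosome 11, 106394650 to 106487852, minus strand), the gene of IRE1, went from 29.9, 33.6 and 37.2 to 34, 70.9 and 65.3 CPM with Dux, from 59.6, 62.3 and 59.4 to 57.5, 64.7 and 62.3 CPM with DUX4 and from 73.2, 68.1 and 63.5 to 105, 92.9 and 98.8 CPM with luciferase. Induced Dux library 1 lay within the uninduced range, and libraries 2 and 3 lay above it. The edgeR changes were 0.74 (SE 0.17, adjusted p = 0.000727), 0.03 (SE 0.161, adjusted p = 0.911) and 0.53 (SE 0.155, adjusted p = 0.0126), and the Dux change was 1.00 without that library. The luciferase call of Ern1 was lost without induced library 1 (adjusted p = 0.0533) and without uninduced library 3 (adjusted p = 0.0572). Atf6 (chromosome 1, 170704674 to 170867771, minus strand) went from 112, 113 and 117 to 130, 162 and 178 CPM with Dux, from 110, 117 and 114 to 98.7, 100 and 101 CPM with DUX4 and from 202, 200 and 203 to 203, 208 and 201 CPM with luciferase. The Dux groups were separate, and the luciferase groups overlapped. By edgeR the changes were 0.46 (SE 0.0741, adjusted p = 1.89e-05), −0.18 (SE 0.0748, adjusted p = 0.0372) and 0.02 (SE 0.0722, adjusted p = 0.911), the DUX4 call being lost without 5 of the 6 libraries in turn, with RLE scaling and with DESeq2 (adjusted p from 0.0604 to 0.107).

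Xbp1 (chromosome 11, 5520659 to 5525893, plus strand) went from 130, 123 and 125 to 172, 140 and 139 CPM with Dux, from 126, 129 and 128 to 108, 106 and 105 CPM with DUX4 and from 164, 168 and 169 to 191, 192 and 194 CPM with luciferase. The groups did not overlap, and DUX4 was the line in which Xbp1 was lower after induction. Its edgeR changes were 0.26 (SE 0.0605, adjusted p = 0.000898), −0.26 (SE 0.061, adjusted p = 0.000835) and 0.20 (SE 0.0594, adjusted p = 0.0124), with 0.01 (adjusted p = 0.855) in the Dux line under library size alone and the luciferase call lost without uninduced library 1 (adjusted p = 0.0536). Splicing of Xbp1 by IRE1 is not visible in gene counts. All 3 sensor and factor genes rose with Dux, where 34.1% of all genes rose. Atf6 and Xbp1 fell with DUX4, where 33.1% of all genes fell. Ern1 and Xbp1 rose with luciferase, where 14.7% of all genes rose.

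Side by side, the median changes of the amino acid arm and the chaperone arm separated in every induced library of every line. The median log2 difference of the amino acid genes from the uninduced mean was 1.15, 1.08 and 0.99 in the 3 induced Dux libraries, and that of the chaperone genes was 0.42, 0.32 and 0.33. In the DUX4 line the amino acid medians were 0.59, 0.62 and 0.59 and the chaperone medians −0.43, −0.44 and −0.45. In the luciferase line they were 1.06, 0.63 and 0.85 for amino acid genes and −0.18, −0.19 and −0.17 for chaperones. The median change of the amino acid genes was thus above that of the chaperones in all 9 induced libraries. The chaperone median was positive in the Dux line alone. Single genes did not all follow the medians. With Dux, Hspa5 and Dnajb9 rose more than Slc7a11, Slc3a2 and Phgdh, and with luciferase Slc7a11 fell more than any chaperone gene. The arms were compared by these values and not by a test, since the genes were chosen with results known.

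**Figure D5:**
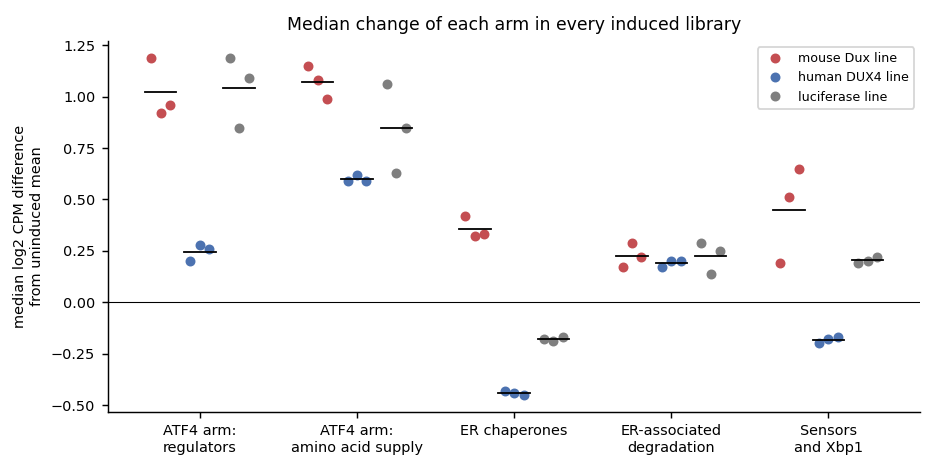
Median over each group of members of the log2 CPM difference from the mean of the uninduced libraries (y axis), for each induced library of the mouse Dux, human DUX4 and luciferase lines; points are libraries and black lines their means. Chaperone medians are 0.32 to 0.42 with Dux, −0.45 to −0.43 with DUX4 and −0.19 to −0.17 with luciferase; with library size alone the Dux chaperone median of the fitted changes is 0.13.

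The Dux response was above the DUX4 response for 27 of 40 members and below it for 2 (Nupr1 and Edem1), beside 32.9% and 32.3% of all genes. By role, 7 of 12 regulators, 6 of 9 amino acid genes, 10 of 12 chaperones, 1 of 4 degradation genes and all 3 sensor and factor genes were higher. The chaperone differences were led by Hspa5 (1.70), Manf (1.52) and Pdia4 (1.25), with Dnajb9 (0.21, adjusted p = 0.111) and Dnajc3 (0.04, adjusted p = 0.672) not called. With library size alone the median of all genes in this comparison was −0.19 and not 0.02, and 38.8% and not 50.4% of calls were higher.

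Set against the response of the luciferase line to doxycycline, the Dux response was higher for 24 members and lower for 6, beside 30.4% and 29.5% of all genes. These were 5 regulators (Atf3, Atf4, Trib3, Ppp1r15a and Chac1), 6 amino acid genes, 11 of 12 chaperones, Syvn1 and Atf6. The 6 lower were Ddit3, Cebpb, Vldlr, Dnajc3, Herpud1 and Edem1. The split of calls over all genes moved here too, from 50.7% higher to 32.2% higher with library size alone. The DUX4 response was higher than that of luciferase for 7 members and lower for 18, beside 28.3% and 26.7% of all genes. The higher ones were Atf3, Nupr1, Ppp1r15a, Psat1, Slc7a11, Cth and Syvn1, and the lower ones held 8 chaperones together with Atf4 (−0.96), Atf5 (−0.96), Ddit3 (−2.11) and Ddit4 (−1.62). The 3 responses share no libraries, but the luciferase libraries serve both of these comparisons. The luciferase clone also differed in its markers of differentiated muscle, which summed to at least 377 CPM there against at most 11.9 CPM in the other lines, and the part of that in these differences was not tested.

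The clones differed before induction. In the uninduced Dux clone 9 members were higher and 26 lower than in the uninduced luciferase clone, beside 32.2% and 33.1% of all genes, and in the uninduced DUX4 clone 16 were higher and 14 lower, beside 36% and 37%. Regulators were mostly lower: 10 of 12 in the Dux clone (median −0.86) and 8 of 12 in the DUX4 clone (median −0.83). Log2 differences by edgeR were −2.55 (SE 0.293, adjusted p = 2.65e-07) and −2.60 (SE 0.295, adjusted p = 1.61e-07) for Atf3 in the Dux and DUX4 clones, and −1.81 (SE 0.184, adjusted p = 4.68e-08) and −1.56 (SE 0.178, adjusted p = 1.75e-07) for Trib3. Herpud1 was higher in the Dux clone (1.37 (SE 0.072, adjusted p = 2.45e-12)). Amino acid genes were higher in the DUX4 clone for 7 of 9, led by Psat1 (1.40) and Phgdh (1.33). After induction the order of the lines differed by gene. Trib3 ended lower in induced Dux cells (44.3 to 48 CPM) than in induced luciferase cells (79.5 to 137 CPM), whereas Atf3 (46.9 to 59.1 against 9.04 to 13.4 CPM) and Ppp1r15a (148 to 152 against 46.9 to 68.2 CPM) ended higher. The part of the starting levels in the responses was not tested.

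Per length, levels in the induced Dux line were highest for Calr at 482 CPM per kb of exon, then Hspa5 at 337, Atf4 at 194, Phgdh at 142 and Hsp90b1 at 133. In induced DUX4 cells the order was Calr at 357, Hspa5 at 164, Hsp90b1 at 155 and Atf4 at 139 CPM per kb. Luciferase cells with doxycycline had Atf4 at 235, Calr at 230, Hsp90b1 at 203 and Atf5 at 200 CPM per kb. Atf3 was at 24.1, 9.53 and 5.21 CPM per kb in the induced Dux, DUX4 and luciferase lines.

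Other genes of the pathway were taken from lists that hold no member. Their counts stand beside 34.1% of all genes higher and 34.8% lower with Dux. The shares were 34.4% and 33.1% with DUX4, and 14.7% and 16.4% with luciferase. Of 20 cytosolic aminoacyl-tRNA synthetase genes, which supply charged tRNA, 17 rose and 2 fell with Dux, 8 rose and 7 fell with DUX4, and 13 rose and 2 fell with luciferase. Aars was at 1.29 with Dux, 0.21 with DUX4 and 0.64 with luciferase, Cars at 1.10, 0.28 and 0.55, and Vars at 0.48, −1.14 and 0.20, all called by edgeR. The luciferase call of Vars was lost without any of 5 single libraries (adjusted p from 0.0641 to 0.27), with RLE scaling (0.0678) and with DESeq2 (0.073). Of 20 further ATF4 targets 15 rose and 2 fell with Dux and 5 rose and 10 fell with DUX4, while 18 rose and 2 were not called with luciferase. Bcat1, the branched-chain aminotransferase, was at 0.94 with Dux, −2.54 with DUX4 and 0.62 with luciferase, and Ndrg1 at 0.22 (−0.02 with library size alone), 3.72 and 1.11. Fgf21, a stress hormone gene, rose with Dux (2.60 (SE 0.387, adjusted p = 7.17e-06)) and with luciferase (1.27 (SE 0.224, adjusted p = 0.000196)) and was at −1.20 with DUX4 (adjusted p = 0.181).

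Among 8 genes of the eIF2alpha kinases, substrate and phosphatase, 4 rose and 3 fell with Dux. With DUX4 3 rose and 3 fell, and with luciferase 2 rose and 1 fell. For this and the next lists, 34.1% of all genes rose and 34.8% fell with Dux. The shares were 34.4% and 33.1% with DUX4, and 14.7% and 16.4% with luciferase. Eif2ak3, the gene of PERK, the kinase of the endoplasmic reticulum, rose with both Dux (0.86 (SE 0.0648, adjusted p = 5.5e-10)) and DUX4 (1.25 (SE 0.0657, adjusted p = 1.91e-12)). With luciferase it passed at 0.19, a call lost without any of 4 single libraries (adjusted p from 0.131 to 0.191), with RLE scaling (0.0619), with no filter (0.0528) and with DESeq2 (0.0706). Eif2ak4, the gene of the amino acid sensor GCN2, fell with DUX4 (−0.90 (SE 0.0945, adjusted p = 6.86e-08)) and was at 0.02 with Dux (adjusted p = 0.852) and 0.11 with luciferase (adjusted p = 0.348). Ppp1cc, a phosphatase catalytic subunit, fell with both (−0.29 and −0.79) and was at −0.14 with luciferase (adjusted p = 0.0527, and called with RLE scaling, DESeq2 and only the compared groups). Of 24 tested further folding and degradation genes of the endoplasmic reticulum, 13 rose and 7 fell with Dux, 7 rose and 11 fell with DUX4, and 5 rose and 1 fell with luciferase. Vimp, a selenoprotein of the degradation complex, was at 2.2 with Dux and −0.31 with DUX4, and Ero1l, the oxidase that recharges disulfide isomerases, at 1.78 and 1.25. With luciferase Ero1l rose by 0.87 and Vimp was at 0.02 (adjusted p = 0.877). The signal peptidase subunit gene Sec11c rose with Dux (0.91) and was at −0.03 with DUX4 and −0.0063 with luciferase (adjusted p = 0.838 and 0.992). Of 7 other bZIP factors and proteases linked to stress sensing, 1 rose and 4 fell with Dux, 3 rose and 3 fell with DUX4, and 2 rose with luciferase. Creb3l1 was at −1.09 with Dux and −2.32 with DUX4, Crebrf at −1.27 and 0.44, and Creb3l2 at 0.44 (lost without induced Dux library 3, with library size alone and with only the compared groups, adjusted p = 0.0716, 0.193 and 0.0742) and −0.67. With luciferase Crebrf rose by 0.63, and Creb3l1 and Creb3l2 were at 0.14 and 0.33 (adjusted p = 0.0795 and 0.0614).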

How the data were processed

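Polyadenylated RNA was sequenced from 18 libraries in 6 groups of 3, grouped and numbered as labelled. The deposited values were raw read counts per gene, whole numbers with 1 column per library. The tools named per the submitters' processing notes are CASAVA, Bowtie2 2.2.3 and TopHat2 2.0.12, with build mm10. The counting step, its annotation and its strand setting were not given in the sources used here, which leaves reads of overlapping genes uncertain. In 27 genes the symbol had become a date and was restored from the gene identifier. Positions and exon lengths came from GENCODE on the same build, GRCm38.

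Genes were kept by filterByExpr (13602 of 24028), scaled by TMM, and fitted with edgeR 4.0.16 in R 4.3.3 as 1 model of 6 group means over all libraries, with contrasts tested by the two-sided quasi-likelihood F test. Log2 fold changes are from this fit, with Benjamini-Hochberg adjustment over all genes tested, called at 0.05. The common biological variation was 6.25%. CPM used TMM-scaled totals. The steps were tested on simulated data.

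The members, lists and named genes were chosen with earlier results of these data known. Values in every library are given for members called at an absolute log2 change of at least 1 with Dux or DUX4 and for Atf4, Hspa5, Xbp1, Ern1 and Atf6, and up to 3 genes of each other pathway list are named by size of change. Alternatives were RLE scaling, library size alone, no filter, only the groups compared, DESeq2 1.42.0, a replicate block, and each library left out.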

Additional observations from a re-analysis of the deposited data

Results flagged for a closer look

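For 29 of the 40 tested members, the response to mouse Dux differed from the response to human DUX4. The edgeR test was of the difference itself, on the log2 scale as Dux minus DUX4. Of the members 27 were higher and 2 lower, beside 32.9% and 32.3% of all genes. Among regulators the differences were 1.29 for Atf3, 1.26 for Atf4, 0.91 for Atf5, 1.26 for Ddit3, −0.44 for Nupr1, 1.09 for Ppp1r15a, 1.11 for Chac1 and 1.84 for Ddit4. Among amino acid genes they were 1.03 for Asns, 0.44 for Psat1, 1.27 for Phgdh, 1.58 for Shmt2, 1.37 for Mthfd2 and 0.64 for Cth. Among chaperones they were 1.70 for Hspa5, 0.70 for Hsp90b1, 0.25 for Dnajb11, 1.09 for Sdf2l1, 1.25 for Pdia4, 0.74 for Pdia6, 0.45 for Calr, 0.78 for Creld2, 1.52 for Manf and 0.90 for Hyou1. The degradation genes had 0.64 for Herpud1 and −0.28 for Edem1. The sensor and factor genes had 0.72 for Ern1, 0.64 for Atf6 and 0.52 for Xbp1. Of these, the differences of Atf3, Cth, Dnajb11 and Ern1 did not pass under at least 1 alternative.

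Against the luciferase line, 24 members passed the test as higher and 6 as lower for Dux, beside 30.4% and 29.5% of all genes. For DUX4, 7 were higher and 18 lower, beside 28.3% and 26.7% of all genes.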

How the results depend on the processing

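The called changes of the regulators, amino acid genes and chaperones kept their direction under RLE scaling, no filter, only the groups compared, DESeq2 and each library left out. Most calls that ended, though not all, are given beside the gene. Calls gained under an alternative are given for some genes only. With only the groups compared, edgeR also called Ddit3 with DUX4 (−0.24, adjusted p = 0.00806) and Hspa5 with luciferase (−0.08, adjusted p = 0.0196). It then called Slc3a2 for Dux minus DUX4 as well (−0.22, adjusted p = 0.0433). With library size alone the Dux comparisons shifted downward: members lower were 7 (and not 2) with Dux, 6 (not 2) for Dux minus DUX4 and 11 (not 6) for Dux minus luciferase. Genes lower among all 13602 were 6922 (not 4728), 5582 (not 4397) and 5972 (not 4017) in the same order. Under that scaling the medians were 0.80 and 0.13 for amino acid genes and chaperones with Dux, 0.56 and −0.48 with DUX4 and −0.16 for chaperones with luciferase. That setting also turned the sign of the degradation median (−0.0016) and of Slc7a11 (−0.18), Dnajb11 (−0.04), Calr (−0.22), Creld2 (−0.07), Sel1l (−0.13), Eif2ak4 (−0.22) and Ndrg1 (−0.02) with Dux, of Ern1 with DUX4 (−0.02), of Cebpb (−0.01), Dnajc3 (−0.17) and Syvn1 (−0.09) for Dux minus DUX4, of Sec11c with luciferase (0.01), and of Slc3a2 in the uninduced Dux clone against luciferase (0.01). The chaperone median was −0.42 with DUX4 and −0.19 with luciferase under both RLE scaling and DESeq2, and −0.46 with DUX4 when only the compared groups were fitted. Fitting those groups alone gave 1 member lower with Dux, as did RLE scaling, 11 members higher (not 7) for DUX4 minus luciferase, and 3032 genes higher (not 2004) with luciferase; the cause was not tested. Near 0, Hsp90b1 with Dux turned to 0.0041 (RLE scaling), 0.0095 (only the compared groups) and 0.0042 (DESeq2), and Atf6 with luciferase to −0.0013 (RLE scaling and DESeq2).

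Leaving out 1 library at a time, members lower ranged from 1 to 3 with Dux (1 without induced library 1 or uninduced library 2) and from 2 to 4 for Dux minus DUX4 (4 without induced Dux library 1). Over all genes tested these counts ranged from 4478 to 5114 and from 4211 to 4611. The chaperone median ranged from 0.31 to 0.41 with Dux and from −0.20 to −0.15 with luciferase, and the amino acid median from 0.58 to 0.61 with DUX4. Uncalled genes near 0 changed sign: with Dux, Cebpb ranged from −0.22 to 0.08, Slc7a11 from −0.04 to 0.12, Hsp90b1 from −0.04 to 0.0032, Calr from −0.03 to 0.07 and Eif2ak4 from −0.12 to 0.14. With DUX4, Atf5 ranged from −0.06 to 0.00091, Stc2 from −0.13 to 0.56, Ern1 from −0.02 to 0.07 and Sec11c from −0.10 to 0.03. With luciferase, Vimp ranged from −0.02 to 0.09 and Sec11c from −0.06 to 0.09. For Dux minus DUX4, Slc7a5 ranged from −0.05 to 0.03, Dnajc3 from −0.01 to 0.09 and Sel1l from −0.16 to 0.03, and Cth in the uninduced DUX4 clone against luciferase ranged from −0.04 to 0.29.

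Whether equal replicate numbers paired the samples was not settled by the correlations between libraries. Same-numbered induced and uninduced libraries correlated at 0.219, 0.105 and 0.0802 in the Dux line. Values were −0.0306, 0.0199 and −0.0238 in the DUX4 line and 0.0186, 0.0308 and 0.0148 in the luciferase line. Libraries of unequal number ranged from −0.165 to 0.0935 in the Dux line. They ranged from −0.0123 to 0.0375 in the DUX4 line and from −0.0286 to 0.0102 in the luciferase line. Induced Dux library 3 correlated better with uninduced library 2 (0.0867) than with its own number. With the replicate block, 31 members rose and 2 fell with Dux, 16 rose and 16 fell with DUX4, and 24 rose and 9 fell with luciferase, as without it. Of the gene values given, 2 gained a call (Shmt2 in the uninduced Dux clone, −0.15, adjusted p = 0.0413, and Ppp1cc with luciferase, −0.14, adjusted p = 0.0452) and 1 lost it (Vars with luciferase, 0.20, adjusted p = 0.0542). Depth limits Vldlr and Stc2 in the DUX4 clone, Slc7a3 in all libraries and the uninduced levels of Atf3.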
